A study of Mus musculus with 12 samples.

Results

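Eph receptors are receptor tyrosine kinases of the cell surface that bind ephrins, which are ligands held on the membrane of neighbouring cells. Binding signals forward into the receptor-bearing cell, mostly through regulators of the actin cytoskeleton, and backward into the ephrin-bearing cell, and it steers growth cones, sorts cells and shapes boundaries. EphA receptors mainly bind the lipid-anchored ephrin-A ligands and EphB receptors the transmembrane ephrin-B ligands, while EphA4 binds both. In the developing cochlea, ephrin and Eph proteins are known for their part in the routing of spiral ganglion neurites past mesenchyme and towards hair cells. The genes described here are 10 Eph receptor genes taken by name from the count table, Epha3, Epha4, Epha5, Epha7, Epha8, Epha10, Ephb1, Ephb2, Ephb3 and Ephb6, out of 24489 genes. All 10 were present in the table, where 4 more Eph receptor genes and 8 ephrin genes stood beside them.

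The counts came from individual mouse cochlear cells, gated on a red fluorescent reporter, placed 1 per well of a plate and read with Smart-seq2, a full-length cDNA protocol without molecular identifiers. The 12 plates used comprised 2 of E14.5, 2 of E15.5, 3 of E16.5, 1 of E17.5, 2 of E18.5 and 2 of P3, the letters E and P standing for embryonic and postnatal day. Of these, 11 plates carried the label PVcre;Ai14, in which Cre driven from the parvalbumin locus switches on the tdTomato reporter of the Ai14 allele, and replicate 2 of E14.5 carried the label TrkCcre. The methods give Cre at the Ntrk3 (TrkC) locus for embryos of E14.5, against the label of replicate 1, so comparisons with E14.5 may differ in Cre driver as well as in stage. All cells passed a gate on the reporter, so cell numbers do not give the make-up of the tissue. Of 4608 wells, 4226 held a cell with more than 1000 genes and under 5% of counts from spiked-in control RNA, at 80997594 to 303906928 counts per plate and a median of 295935 counts per cell. No well name was shared between plates. Each plate counted as 1 replicate. As the labels do not tie plates to animals, p-values measure the spread between plates.

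Cells were assigned by marker genes to SGN-like (spiral ganglion neurons), glia-like, OM-like (otic mesenchyme) and HC-like (hair cells) classes, with 2275, 1212, 544 and 74 cells in sums that held enough cells. Counts were summed per class and plate and expressed as CPM (counts scaled to a common library size) after TMM normalization. In SGN-like sums all 14 neuronal markers were above 0 in every plate and together reached 14800 to 22500 CPM. The plates came from 4 series that stood apart. A cell of the SS2_20 plates (E14.5, E15.5, E16.5 replicate 3 and E17.5) had a median of 4691 to 4983 genes, against 8426 to 9629 in the SS2_18 (E16.5 replicates 1 and 2), SS2_19 (E18.5) and SS2_15 (P3) plates. The 13 glial markers summed to 94.2 to 218 CPM in SGN-like neurons of the SS2_20 plates, 692 to 817 CPM in SS2_18, 2690 to 2700 CPM at E18.5 and 7250 to 9070 CPM at P3. Both E18.5 and P3 were each measured in a plate series of their own, so stage and series cannot be told apart there.

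Within SGN-like neurons the receptors were ranked by level per kilobase of annotated exon, the scale on which genes can be compared. At E14.5, Epha4 stood at 32.3 ± 1.71 CPM per kb (SD, n = 2 plates), Epha5 at 27.9 ± 5.41 and Epha7 at 17.7 ± 1.15. The gap between Epha4 and Epha5 lay within their spread. At E18.5 the order was Epha4 (28.4 ± 0.382 CPM per kb, n = 2), Epha7 (20.8 ± 1.07) and Ephb3 (19.6 ± 1.14), with Epha7 and Ephb3 within their spread of each other, followed by Ephb6 and then Epha10 (13.2 ± 0.569). Epha5 had moved to sixth place at 9.41 ± 0.569 CPM per kb, and Epha8, Ephb1, Ephb2 and Epha3 lay between 2.9 and 7.04 CPM per kb. At P3, Epha4 led at 24.9 ± 2.43 CPM per kb, and Epha7 (13.4 ± 1.61) and Ephb1 (12.8 ± 0.527) did not differ beyond their spread. In the mm10 build, Epha5 lies at chr5:84054761-84417382 and Ephb1 at chr9:101922128-102354693, both on the minus strand. Epha7 lies at chr4:28813131-28967499 on the plus strand, and Epha8 at chr4:136929419-136956816 and Ephb2 at chr4:136647539-136835988 on the minus strand. Ephb6, whose product is held to be catalytically inactive, lies at chr6:41605482-41620509 on the plus strand.

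Ephb3 and Epha10 climbed together in the neurons between E14.5 and E18.5. Ephb3 encodes a receptor for ephrin-B ligands, and Epha10 encodes a family member whose kinase domain is held to lack catalytic activity. In mm10, Ephb3 lies at chr16:21204755-21223305 on the plus strand and Epha10 at chr4:124880899-124917800 on the plus strand. Because these genes moved together, and because Epha3 (chr16:63543534-63864175, minus strand) and Epha4 (chr1:77367185-77515088, minus strand) were opposed between glia and mesenchyme, the reference promoters of these 4 genes are printed from RefSeq (GRCm38.p6), 5′ to 3′ on the gene's strand, from 250 bases before to 50 bases after the annotated start. Capitals mark matches to the 5 motifs searched.
Ephb3 promoter, chr16:21204545-21204844, plus strand: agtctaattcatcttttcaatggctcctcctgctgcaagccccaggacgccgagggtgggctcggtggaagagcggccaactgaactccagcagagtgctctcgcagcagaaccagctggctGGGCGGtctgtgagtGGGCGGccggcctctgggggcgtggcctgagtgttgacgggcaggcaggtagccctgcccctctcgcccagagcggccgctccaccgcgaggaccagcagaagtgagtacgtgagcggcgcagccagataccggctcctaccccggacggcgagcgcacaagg
Epha10 promoter, chr4:124881535-124881834, plus strand: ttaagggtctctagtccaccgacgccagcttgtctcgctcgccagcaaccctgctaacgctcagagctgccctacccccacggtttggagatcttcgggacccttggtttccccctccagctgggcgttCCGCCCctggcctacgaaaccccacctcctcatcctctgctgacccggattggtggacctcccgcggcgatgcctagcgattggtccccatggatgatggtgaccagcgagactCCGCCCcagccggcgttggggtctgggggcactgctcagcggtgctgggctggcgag
Epha3 promoter, chr16:63864126-63864425, minus strand: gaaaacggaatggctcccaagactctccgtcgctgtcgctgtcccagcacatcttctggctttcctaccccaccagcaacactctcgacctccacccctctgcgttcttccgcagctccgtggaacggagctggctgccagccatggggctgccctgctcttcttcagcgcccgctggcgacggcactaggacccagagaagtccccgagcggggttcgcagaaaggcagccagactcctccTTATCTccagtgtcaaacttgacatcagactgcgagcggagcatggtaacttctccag
Epha4 promoter, chr1:77515039-77515338, minus strand: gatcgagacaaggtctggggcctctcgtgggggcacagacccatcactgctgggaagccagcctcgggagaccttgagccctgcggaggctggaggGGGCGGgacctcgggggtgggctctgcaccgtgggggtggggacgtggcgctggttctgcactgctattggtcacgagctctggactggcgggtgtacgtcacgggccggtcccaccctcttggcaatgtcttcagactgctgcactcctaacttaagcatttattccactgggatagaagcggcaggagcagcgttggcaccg
The motifs, each of 6 bases and read on both strands with overlaps allowed, were an E-box spelled CAGATG (held by 17.2% of all 32851 promoters of the same length), a GATA motif spelled AGATAA (11.2%), a RUNX motif spelled TGTGGT (16.8%), a SOX motif spelled ACAATG (12.6%) and a GC box spelled GGGCGG (35.7%). Ephb3 and Epha10 each held 2 GC boxes and none of the other 4 motifs, Epha4 held 1 GC box, and Epha3 held 1 GATA motif. Among the other 6 members, GC boxes were found 6 times in Epha8, 5 times in Ephb6, 2 times in Epha5 and 1 time in each of the 2 annotated Epha7 promoters, and none was found in Ephb1 or Ephb2, while Ephb1 held 1 RUNX and 1 SOX motif. The GC content was 65.3% for Epha10 and 66.7% for Ephb3 against a median of 52.7% over all promoters, and it reached 84.3% for Epha8, above 99.8% of all promoters. A match of letters is a description and not evidence of binding.

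Ephb3 in SGN-like neurons measured 19.2 and 25.1 CPM in the 2 plates of E14.5, 67.4 and 59.4 CPM at E15.5, 102, 112 and 118 CPM at E16.5, 171 CPM in the single plate of E17.5, 135 and 125 CPM at E18.5 and 54.3 and 51.9 CPM at P3. Epha10 measured 22.7 and 26 CPM, 44.8 and 48.8 CPM, 80.9, 79.7 and 86.1 CPM, 123 CPM, 97.7 and 91.9 CPM, and 34.3 and 26.9 CPM in the same order. For both genes every plate of a later embryonic stage up to E17.5 lay above every plate of the stage before it, and both P3 plates lay below all plates of E16.5 to E18.5. From E14.5 to E18.5, Ephb3 rose 5.79-fold (log2 fold change 2.53 ± 0.16 SE) and Epha10 rose 3.85-fold (1.94 ± 0.16), with adjusted p of 5.46e-06 and 2.22e-05 by edgeR's quasi-likelihood test with Benjamini-Hochberg adjustment over all genes, the test used throughout.

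In that comparison 5 of the 10 receptors were called at an adjusted p below 0.05, against 23.5% of all 17825 genes tested. Besides Ephb3 and Epha10, Epha8 rose (0.79 ± 0.19 on the log2 scale, adjusted p = 0.0121), while Epha5 fell (-1.59 ± 0.15, adjusted p = 4.92e-05) and Epha3 fell (-1.01 ± 0.21, adjusted p = 0.00663). Epha5, an ephrin-A receptor, went from 531 and 403 CPM at E14.5 through 296 and 279 CPM at E15.5 to 157 ± 9.52 CPM at E18.5 (SD, n = 2). Epha3, also an ephrin-A receptor, went from 48.5 and 52.0 CPM to 23.8 and 26.6 CPM. The E14.5 and E18.5 plates of each called gene did not overlap, which adds no support to calls made on the same plates. The call of Epha8 was lost without either E18.5 plate, which leaves 1 plate at that stage, and that of Epha3 without E18.5 replicate 1. Leaving out neurons with a count of the glial gene Sox10 gave -1.08 for Epha3 with an adjusted p of 0.125.

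The step from E14.5 to E15.5, within a single plate series, held 3 called receptors where 6.02% of all genes were called. Ephb3 rose (1.51 ± 0.16, adjusted p = 0.00114), Epha10 rose (0.93 ± 0.15, adjusted p = 0.00765) and Epha5 fell (-0.71 ± 0.15, adjusted p = 0.0193). Epha5 differed between the E14.5 plates themselves, and without the PVcre;Ai14 plate (replicate 1) its change was -0.48 with an adjusted p of 0.0802. Without E15.5 replicate 1 or 2 its adjusted p was 0.0682 or 0.0935. Fitted on the SS2_20 plates only, Ephb3 was called (1.51, adjusted p = 0.0199), and Epha10 (0.94, adjusted p = 0.0799) and Epha5 (-0.71, adjusted p = 0.0747) had adjusted p above 0.05, so that 1 receptor was called. Without neurons holding a Sox10 count, 1 receptor was called as well.

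From E15.5 to E16.5, Ephb3 and Epha10 were the 2 receptors called, each with a log2 fold change of 0.81 ± 0.14 and adjusted p of 0.0205 and 0.0206, where 1.87% of all genes were called. Between E16.5 and E18.5 none of the 10 was called, with 4.66% of all genes called. There, 1 receptor, Epha5, had an unadjusted p below 0.05 (-0.46 ± 0.13, adjusted p = 0.0867), and DESeq2's Wald test called 1. DESeq2's Wald test called 5 receptors from E15.5 to E16.5, the fit on SS2_20 plates only called 0 (0.88 for Epha10 and 0.90 for Ephb3, adjusted p = 0.678 and 0.654), and the fit without neurons holding a Sox10 count called 0 (1.02 and 0.94, adjusted p = 0.161 and 0.0726). With either E15.5 plate, E16.5 replicate 1 or 2, or either E18.5 plate left out, 0 receptors were called, with changes of 0.76 to 0.87 for Epha10 and 0.71 to 0.90 for Ephb3, and without E16.5 replicate 3 the count was 4. With E14.5 replicate 1 or 2 left out, 1 receptor, Epha5, was called between E16.5 and E18.5.

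Between E18.5 and P3, 7 of the 10 receptors fell and none rose, where 24.7% of all genes were called. The median log2 fold change was -0.92 over the 10 receptors and -0.09 over all genes. Epha10 fell by 1.63 ± 0.15 on the log2 scale (adjusted p = 6.56e-05), Ephb3 fell by 1.29 ± 0.15 (adjusted p = 0.000195), Epha3 fell by 1.21 ± 0.21 (adjusted p = 0.00216) and Ephb2, an ephrin-B receptor, fell by 1.00 ± 0.17 (adjusted p = 0.00159). Epha8, Epha7 and Epha5 fell by 0.86 ± 0.19, 0.63 ± 0.18 and 0.62 ± 0.14 (adjusted p = 0.00671, 0.0259 and 0.0101). Ephb2 had stayed between 42.1 and 62.7 CPM in the 10 embryonic plates and measured 22.2 and 21.7 CPM at P3, below all of them.

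Epha4, the receptor with the broadest ligand range, stayed between 187 and 325 CPM over the 12 plates and was called in none of the 5 stage comparisons. Ephb1, an ephrin-B receptor, was higher at P3 in value without passing the test. It measured 42.8 and 46.3 CPM at E18.5 and 92.0 and 86.7 CPM at P3 (1.01 ± 0.36, adjusted p = 0.0673), and its P3 plates lay above all embryonic plates. Its 2 plates of E14.5 were 16.1 and 45.3 CPM, and with either of them left out Ephb1 was called at P3 (smallest adjusted p over all alternatives 0.0031). Ephb6 measured 55.9 and 53.4 CPM at E18.5 and 27.5 and 28 CPM at P3 (-0.97 ± 0.35, adjusted p = 0.071). Ephb6 also differed between the plates of E14.5 (24.2 and 52.8 CPM) and of E15.5 (48.9 and 25.5 CPM), and with any 1 of these 4 plates left out it was called at P3.

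**Figure D1:**
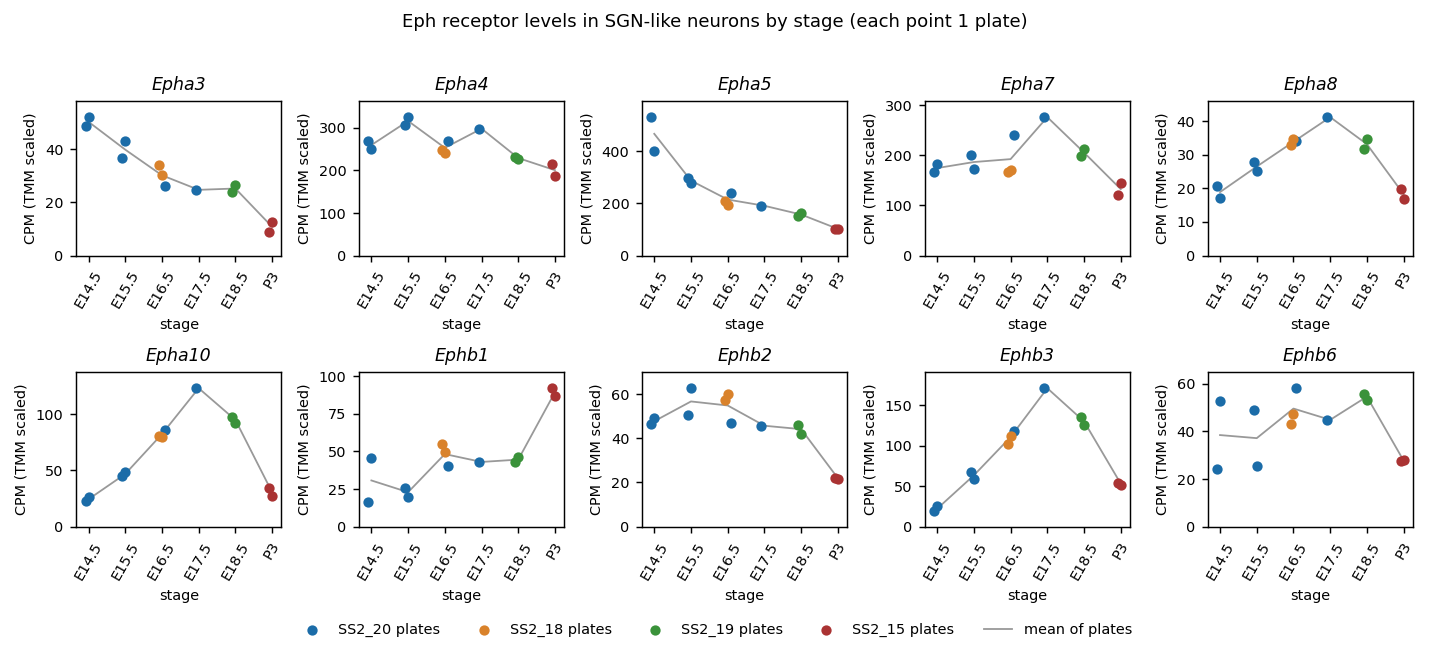
CPM (TMM scaled, linear axis from 0) of the 10 receptors in SGN-like neurons by stage, with each point 1 plate coloured by plate series and the grey line the mean of plates. Ephb3 and Epha10 climb from 19.2 to 25.1 and 22.7 to 26 CPM at E14.5 to their highest points at E17.5 (171 and 123 CPM), Epha5 declines from E14.5 on, and the P3 means of all receptors but Ephb1 lie below those of E18.5.

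Glial RNA in the neurons moved with the P3 decline. Sox10 was counted in 71.5% and 82.4% of SGN-like cells at P3 and in 59.9% and 67.9% at E18.5, against 6.56% to 15.9% on the SS2_20 plates. Cells were not thinned for these shares, so depth and glial RNA cannot be told apart in them. Median counts per cell were 829034 and 1092427 at P3, 317566 and 442451 at E18.5, and 232473 to 277856 on the SS2_20 plates. Of the 13 glial markers, 13 were above 0 at E18.5 and 12 at P3. The part of glial RNA in the decline was examined only by leaving out neurons with a Sox10 count, which removed most P3 neurons. Glial RNA in the neurons that remained was not measured. When neurons with a Sox10 count were left out, the changes at P3 were -1.99 for Epha10 (adjusted p = 0.00132), -1.33 for Ephb3 (adjusted p = 0.00185), -1.40 for Ephb2 (adjusted p = 0.000656), -1.06 for Epha3 (adjusted p = 0.126) and -0.50 for Epha7 (adjusted p = 0.107). Within Ic-like neurons alone, a comparison added after the data were seen that keeps the mixture of neuron classes out, 4 receptors were called: Epha10 (-1.17, adjusted p = 0.0121), Epha5 (-0.60, adjusted p = 0.0195), Epha7 (-0.49, adjusted p = 0.042) and Ephb2 (-0.92, adjusted p = 0.0462), whereas Ephb3 was at -0.74 (adjusted p = 0.252), Epha3 at -1.02 (adjusted p = 0.119) and Epha8 at -0.42 (adjusted p = 0.326). Without E18.5 replicate 2, 4 of the receptors were called in all SGN-like neurons, with Epha5 at an adjusted p of 0.0666, Epha7 at 0.12 and Epha8 at 0.0539. Epha5 was also lost without P3 replicate 1 (0.0515) or 2 (0.0516), Epha7 without E18.5 replicate 1 (0.0787) or P3 replicate 1 (0.152), and Epha8 without P3 replicate 2 (0.056). Epha10 and Ephb2 were called under every alternative tried.

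Genes that act with the receptors were counted from a list of 52, among them 4 other Eph receptors, 8 ephrins, 18 adaptors, kinases and phosphatases, and 7 genes of reverse signalling and cleavage. At P3, 19 of the 52 were called, 3 higher and 16 lower, where 24.7% of all genes were called. All 3 called ephrins were ephrin-B genes and lower, with Efnb3 at -2.02 ± 0.24 and Efnb1 at -1.62 ± 0.25, and Cbl, a ubiquitin ligase that acts on receptor tyrosine kinases, was at -2.20 ± 0.17. Cbl measured 38.3 ± 0.0134 CPM at E18.5 and 8.3 ± 1.32 CPM at P3 (SD, n = 2 each). From E14.5 to E15.5, 3 of the 52 were called, where 6.02% of all genes were called, with Sipa1l1 higher (1.23 ± 0.21) and Chn1, which encodes the Rac GTPase-activating protein alpha-chimaerin that acts downstream of EphA4, lower (-0.74 ± 0.15). From E15.5 to E16.5, the ligand gene Efna5 was higher (1.76 ± 0.33) and Vav3, a guanine nucleotide exchange factor, lower (-1.38 ± 0.26).

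Glia-like, OM-like and SGN-like cells were compared on the 6 SS2_20 plates, which held all 3 classes in numbers. Glia-like and OM-like sums of the other series came from 5 to 17 cells, and their neuronal markers were high (6580 to 9220 CPM in glia-like sums of the SS2_18 plates against 571 to 810 CPM on SS2_20 plates), so they entered no class test. When levels were taken per kilobase, Epha3 led in glia-like cells and Epha4 in both OM-like cells and SGN-like neurons. Epha3 made up 40.7% ± 8.03 (SD, n = 6 plates) of the summed receptor level in glia-like cells, Epha4 44.9% ± 3.32 in OM-like cells and 28.7% ± 4.21 in SGN-like neurons. Second came Ephb6 in glia-like cells (16.4% ± 4.18) and Epha7 in both OM-like cells (24.5% ± 3.12) and SGN-like neurons (15.2% to 18.3%), although in neurons Epha5, at 7.48% to 28.7%, lay within the same spread.

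Epha3 marked the glia. It measured 254 and 279 CPM at E14.5, 330 and 275 CPM at E15.5, 274 CPM at E16.5 and 163 CPM at E17.5 in glia-like cells, from 24.7 to 52.0 CPM in SGN-like neurons, and 11.8 and 12.5, 52.4 and 2.85, 19.8 and 9.31 CPM in OM-like cells. The glial plates did not overlap those of either other class. Epha3 was 6.7-fold higher in glia-like than SGN-like cells (2.75 ± 0.44, adjusted p = 7.93e-05) and 15-fold lower in OM-like than glia-like cells (-3.90 ± 0.46, adjusted p = 2.16e-05). It was the 1 receptor of the 10 higher in glia, while 5 were lower, where 52.0% of all 16072 genes were called.

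Epha4 was the mirror image. In glia-like cells it measured 9.75 and 16.6, 15 and 14.2, 17.3 and 28 CPM over the 6 plates, and in OM-like cells 422 and 363, 376 and 365, 381 and 379 CPM. In SGN-like neurons the 6 plates ranged from 250 to 325 CPM. The glia lay below both other classes in every plate, and 5 of the 6 OM-like values lay between 363 and 381 CPM. Epha4 was 17.6-fold lower in glia than in neurons (-4.14 ± 0.18, adjusted p = 1.69e-10) and 23.6-fold higher in OM than in glia (4.56 ± 0.18, adjusted p = 7.16e-10). Against neurons, OM-like cells had a 1.34-fold higher level (0.42 ± 0.15, adjusted p = 0.0326). That last call was lost without E14.5 replicate 2, E15.5 replicate 1 or E16.5 replicate 3 (0.39 to 0.45, adjusted p = 0.0616 to 0.097).

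Epha7, an ephrin-A receptor, went with Epha4. It ranged from 33 to 65.2 CPM in glia-like cells, from 198 to 347 CPM in OM-like cells and averaged 206 ± 43.2 CPM in SGN-like neurons (SD, n = 6). Glia were 4.02-fold below neurons (-2.01 ± 0.19, adjusted p = 3.94e-07) and OM 5.03-fold above glia (2.33 ± 0.19, adjusted p = 8.26e-07), and OM and neurons overlapped (0.33 ± 0.18, adjusted p = 0.149). In the comparison of OM with glia, 4 receptors were called, 2 higher and 2 lower, where 25.3% of all genes were called.

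Epha5, Epha8 and Epha10 set the neurons apart from both other classes. Epha10 was above 20 CPM in every SGN-like plate and between 0.0364 and 0.826 CPM in glia-like and between 0 and 1.36 CPM in OM-like plates, from 0 to 59 counts per sum. Epha8 ranged from 17.1 to 41.2 CPM in neurons, from 0 to 1.88 CPM in glia and from 0 to 1.2 CPM in OM. Neither gene's neuronal plates came near those of the other classes. Epha10 was lower in glia (-7.83 ± 1.00 on the log2 scale, adjusted p = 8.87e-06) and in OM (-7.38 ± 1.03, adjusted p = 2.3e-05), values that rest on few counts. Its locus shares 79 exonic bases with the antisense gene 1700125G02Rik, and the use of strand in counting is not stated in the sources used here. Epha5 was lower in glia (-2.81 ± 0.46, adjusted p = 0.000108) and in OM (-3.75 ± 0.47, adjusted p = 7.38e-06). Of the 10 receptors, 6 were called between OM and neurons, 1 higher and 5 lower, where 52.5% of all genes were called. The remaining members lower in OM were Ephb2 (-0.64 ± 0.12, adjusted p = 0.000465) and Epha3 (-1.16 ± 0.43, adjusted p = 0.0328), the latter lost without E14.5 replicate 1, E14.5 replicate 2 or E17.5 replicate 1 (adjusted p = 0.0769 to 0.145).

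Of the EphB members, Ephb1, Ephb3 and Ephb6 were called in none of the 3 class comparisons. These comparisons took 1 class difference over E14.5 to E17.5, which does not show differences that turn with stage. Ephb3 ranged from 19.2 to 171 CPM in neurons and from 45.6 to 110 CPM in OM. Its neuronal level lay below that of OM on both E14.5 plates and above it on the E17.5 plate. Ephb2 was lower in OM than in glia (-0.60 ± 0.12, adjusted p = 0.0022). It averaged 50.3 ± 6.33 CPM in neurons, 49.4 ± 5.24 CPM in glia and 32.5 ± 5.73 CPM in OM (SD, n = 6). Ephb6 averaged 42.4 ± 14.3, 45.7 ± 11.6 and 32.0 ± 15.8 CPM in the same classes. The difference of Ephb6 between glia and neurons was 0.07 ± 0.28 on the log2 scale (adjusted p = 0.851). Markers of the other classes were present in each class. Neuronal markers summed to 571 to 810 CPM in glia-like and 251 to 448 CPM in OM-like sums against 15200 to 17200 CPM in neurons, OM markers to 3640 to 7200 CPM in glia against 13500 to 38600 CPM in OM, and glial markers to 177 to 590 CPM in OM against 7460 to 12100 CPM in glia, with at most 4 of the 13 glial markers at 0 in an OM sum. Their part in the class differences was not tested.

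**Figure D2:**
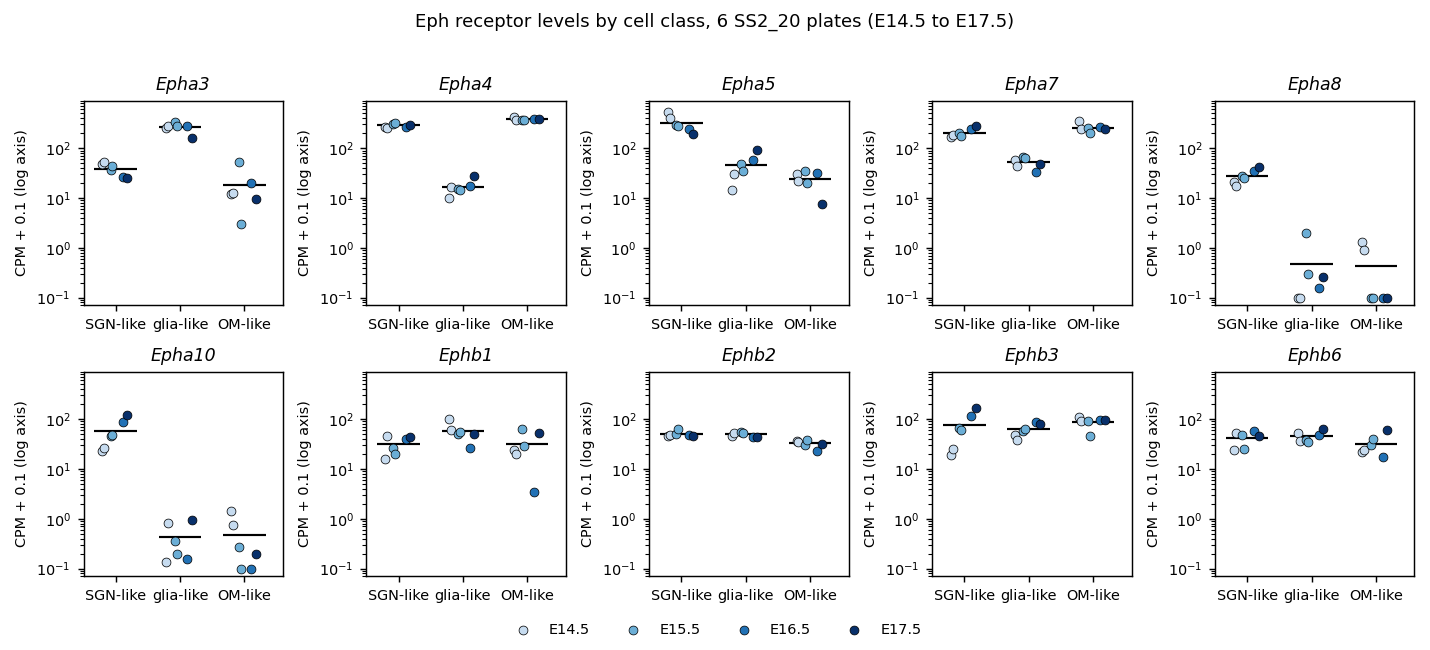
CPM plus 0.1 on a log axis for the 10 receptors in SGN-like, glia-like and OM-like sums of the 6 SS2_20 plates, with point shade giving the stage from E14.5 to E17.5 and the bar the mean. Epha3 is highest in glia (163 to 330 CPM), Epha4 and Epha7 are lowest there, and Epha8 and Epha10 lie at or below 1.88 CPM outside the neurons.

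Among the 52 other genes of the pathway, 35 were called between glia and neurons (20 higher, 15 lower), 33 between OM and neurons (15 higher, 18 lower) and 26 between OM and glia (15 higher, 11 lower), where 52.0%, 52.5% and 25.3% of all genes were called. Another Eph receptor, Ephb4, averaged 0.775 ± 0.926 CPM in neurons, 55.3 ± 3.91 CPM in glia and 177 ± 41.0 CPM in OM (SD, n = 6). The adaptor gene Grb10 averaged 15.9 ± 19 CPM in neurons, 772 ± 265 CPM in glia and 581 ± 191 CPM in OM, and Arhgef15, a guanine nucleotide exchange factor, 32.3 ± 18.9 CPM in neurons and 0.53 ± 0.478 CPM in glia. Of the 8 ephrin genes, 6 were higher in OM than in glia and none was lower, Efna3 by 3.47 ± 0.45 on the log2 scale. Chosen after the values were seen, Efnb1 averaged 122 ± 72.2 CPM in OM, 40.7 ± 3.74 CPM in glia and 24 ± 10.4 CPM in neurons, and Efnb2 averaged 148 ± 34.7 CPM in neurons, 44.6 ± 7.1 CPM in glia and 82.0 ± 24.2 CPM in OM.

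Change per embryonic day was fitted within each class on the same 6 plates. In neurons 1 receptor was called, Ephb3, which rose by 1.01 ± 0.14 log2 units per day (adjusted p = 0.000848), where 2.50% of all genes were called. In glia-like cells none was called, where 0.142% of all genes were called, with 3 receptors at an unadjusted p below 0.05 and 2 called by DESeq2's Wald test. In OM-like cells none was called, where 0.663% of all genes were called, with 2 receptors at an unadjusted p below 0.05. Ephb3 in OM-like cells measured 110 and 93.4, 91.3 and 45.6, 95 and 95.8 CPM, and its slope was -0.01 ± 0.12.

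Differences between the slopes were tested directly. Ephb3 differed between OM and neurons by -1.02 ± 0.19 log2 units per day (adjusted p = 0.0172), the 1 receptor called, where 1.19% of all genes were called. With the plate as a block its adjusted p was 0.0562, and without E14.5 replicate 1 (-0.82, adjusted p = 0.131), E14.5 replicate 2 (-0.98, adjusted p = 0.114), E16.5 replicate 3 (-1.01, adjusted p = 0.0618) or E17.5 (-1.35, adjusted p = 0.0649) it was not called. Epha5 moved in opposite directions. In glia-like cells it measured 14.2 and 30.5 CPM at E14.5, 48.7 and 35.3 CPM at E15.5, 58.4 CPM at E16.5 and 92.0 CPM at E17.5, while in neurons of the same plates it went from 531 and 403 CPM to 191 CPM. The slopes differed by 1.10 ± 0.24 (adjusted p = 0.0441), the 1 receptor called, where 0.693% of all genes were called. With the plate as a block the adjusted p was 0.0929, and it ranged from 0.0549 to 0.35 when each plate was left out in turn, so that no receptor was called. Neither slope of Epha5 on its own was called (glia 0.67 ± 0.17, adjusted p = 0.211, neurons -0.43 ± 0.17, adjusted p = 0.226).

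The neurons divide early into Ic and a branch that leads to Ia, Ib and type II neurons. At E15.5 and E16.5, Ic-like neurons were compared with the intermediate Ia/Ib/II-like neurons on the 5 plates that held both. Epha10 and Ephb3, the pair that climbed in all neurons, were the 2 receptors called, both lower in Ic, where 3.22% of all 12467 genes were called. Epha10 measured 21.3, 24.5, 38.7, 40.8 and 37.2 CPM in Ic-like and 138, 147, 104, 109 and 115 CPM in intermediate neurons (E15.5 replicates 1 and 2, then E16.5 replicates 1 to 3). Ephb3 measured 47.9, 22, 42.3, 49.2 and 81.8 CPM against 129 to 196 CPM, with a median of 148 CPM, in intermediate neurons. The 2 classes did not overlap for either gene. Epha10 was 3.78-fold lower in Ic (-1.92 ± 0.21, adjusted p = 0.000187) and Ephb3 3.22-fold lower (-1.69 ± 0.24, adjusted p = 0.0011), and both were called under every alternative tried. Within Ic-like neurons, the change from E15.5 to E16.5 was 0.75 for Epha10 (adjusted p = 0.133) and 0.69 for Ephb3 (adjusted p = 0.341).

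Another 3 receptors differed in mean without passing the test. Epha8 averaged 40.0 ± 8.51 CPM in Ic-like and 22.1 ± 4.16 CPM in intermediate neurons (SD, n = 5 each, edgeR adjusted p = 0.0595). Ephb1 averaged 21.1 ± 14.7 against 72.2 ± 6.43 CPM (adjusted p = 0.0595) and Epha3 49.8 ± 17.9 against 14 ± 9.77 CPM (adjusted p = 0.101). For Ephb1, every Ic-like plate lay below every intermediate plate, at 0.9 to 37.7 CPM against 63.3 to 80.7 CPM. For Epha3, every Ic-like plate lay narrowly above every intermediate plate, at 29.2 CPM or more against 28.1 CPM or less. The Ic-like plates of Epha8, at 26.4 CPM or more, also lay narrowly above every intermediate plate. Of the 10 receptors, 6 had an unadjusted p below 0.05 by edgeR's test, the called pair among them. Without E15.5 replicate 2, 4 receptors were called, Epha3 and Ephb1 besides the pair. The ligand gene Efna5 was lower in Ic-like neurons (-2.02 ± 0.30). It was 1 of 5 called among the 50 other pathway genes tested, where 3.22% of all genes were called.

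By E18.5 and P3, the 4 mature classes could be summed separately, with 3 sums of II-like and 4 each of Ia-like, Ib-like and Ic-like neurons. Unnamed cells made up 100 of 307 and 115 of 318 SGN-like cells at E18.5, and 50 of 376 and 7 of 125 at P3. They included a subcluster of 120 cells at E17.5 and E18.5 and one of 57 cells at P3 that scored highest for Ia. Ia-like sums may thus hold only part of the Ia neurons. Ic-like cells of E17.5 and E18.5 included a subcluster of 72 cells that scored 0.222 for Ic, where 0.2 was the least score for a name. No Ic marker was among its leading genes, so Ic-like sums may hold other cells. Type II neurons, which innervate outer hair cells, differed most from the type I classes: 8 of the 10 receptors were called between II-like neurons and the mean of the type I classes, 4 higher and 4 lower, where 18.2% of all 14661 genes were called. Ephb3 was higher (2.52-fold, 1.34 ± 0.15, adjusted p = 1.69e-05), as were Epha8 (1.15 ± 0.21, adjusted p = 0.0012), Epha10 (0.82 ± 0.14, adjusted p = 0.00054) and Ephb1 (0.66 ± 0.13, adjusted p = 0.00229). Epha4 was 2.97-fold lower (-1.57 ± 0.18, adjusted p = 2.18e-05), and Epha7 (-0.53 ± 0.13, adjusted p = 0.00882), Epha5 (-0.47 ± 0.13, adjusted p = 0.0179) and Epha3 (-1.77 ± 0.56, adjusted p = 0.0394) were lower than that mean too. For Epha7 and Epha5, II-like neurons did not lie below Ia-like neurons beyond the spread. Epha7 averaged 101 ± 23.8 CPM in II-like, 90.0 ± 18.2 in Ia-like, 194 ± 46.2 in Ib-like and 163 ± 31.6 in Ic-like neurons (SD over plates). Epha5 averaged 94.0 ± 30.1, 95.8 ± 28.9, 167 ± 57.5 and 120 ± 27.9 CPM in the same order. With the plate as a block the adjusted p of Epha3 was 0.0574, and the P3 sum held 1 count of it (0.0666 CPM).

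Epha4 in II-like neurons measured 104 and 104 CPM at E18.5 and 39.3 CPM at P3, and in the 12 type I sums it ranged from 176 to 313 CPM, with no overlap. Epha8 measured 42.8 and 71.9 CPM at E18.5 and 51.9 CPM at P3 in II-like neurons against 11.5 to 41.2 CPM in type I sums, again without overlap. Ephb3 in II-like neurons measured 159, 234 and 90.9 CPM, and the P3 value lay below those of Ia-like neurons at E18.5 (141 and 124 CPM). Against Ia-like neurons of P3, whose lower value was 86.6 CPM, the P3 value lay between their plates. The P3 value came from 18 cells of 1 plate, since the other P3 plate held 4 such cells. Without that plate 5 receptors were called, with Epha8 at an adjusted p of 0.0585, Ephb1 at 0.0797 and Epha5 at 0.0618. Without E18.5 replicate 1, 5 were called as well, with Epha3 at 0.142, Epha5 at 0.16 and Epha7 at 0.117. Epha3 was also lost without E18.5 replicate 2 (0.0777) or P3 replicate 2 (0.0634). Epha4, Epha10 and Ephb3 were called under every alternative tried. Glial markers summed to 3170 to 4290 CPM in II-like sums at E18.5 and to 5970 CPM at P3, and to 1200 to 3720 CPM and 6720 to 12200 CPM in the type I sums. Within type I at E18.5, glial markers summed to 2680 to 3050 CPM in Ia-like, 1200 to 1640 CPM in Ib-like and 3520 to 3720 CPM in Ic-like sums. Their part in these differences was not tested.

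Within type I, Ia-like neurons stood apart from Ib-like and Ic-like. Ephb3 measured 141 and 124 CPM at E18.5 and 86.6 and 100 CPM at P3 in Ia-like neurons, 64.2 and 42.2, 30.1 and 44.2 CPM in Ib-like, and 48.7 and 48.3, 28 and 30.4 CPM in Ic-like. Every Ia-like sum lay above every Ib-like and Ic-like sum. Epha7 showed the reverse order, with 108 and 96.6, 64.6 and 91.3 CPM in Ia-like against 216 and 248, 145 and 169 CPM in Ib-like and 181 and 198, 135 and 136 CPM in Ic-like neurons, and again no overlap. Between Ib and Ia, 3 receptors were called, where 3.53% of all genes were called: Ephb3 lower (-1.32 ± 0.17, adjusted p = 0.000496), Epha7 higher (1.10 ± 0.13, adjusted p = 0.000353) and Epha5 higher (0.79 ± 0.14, adjusted p = 0.00367). The Epha5 call was lost without E18.5 replicate 2 (0.71, adjusted p = 0.0517).

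Between Ic and Ia, 3 receptors were called, where 4.65% of all genes were called: Ephb3 lower (-1.59 ± 0.17, adjusted p = 5.86e-05), Epha7 higher (0.82 ± 0.13, adjusted p = 0.00181) and Epha10 lower (-0.65 ± 0.16, adjusted p = 0.0237). The Epha10 call was lost without either E18.5 plate (adjusted p = 0.241 and 0.234) or P3 replicate 2 (adjusted p = 0.0556). Between Ic and Ib none of the 10 was called, where 0.539% of all genes were called. There, 1 receptor, Epha5, had an unadjusted p below 0.05 (-0.47 ± 0.13, adjusted p = 0.179), and DESeq2's Wald test called it. Vav3 told the Ia-like neurons apart as well, at 0.911 ± 0.737 CPM (SD, n = 4) against 15.3 to 17.2 CPM in Ib-like and 18.8 to 23.2 CPM in Ic-like neurons.

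**Figure D3:**
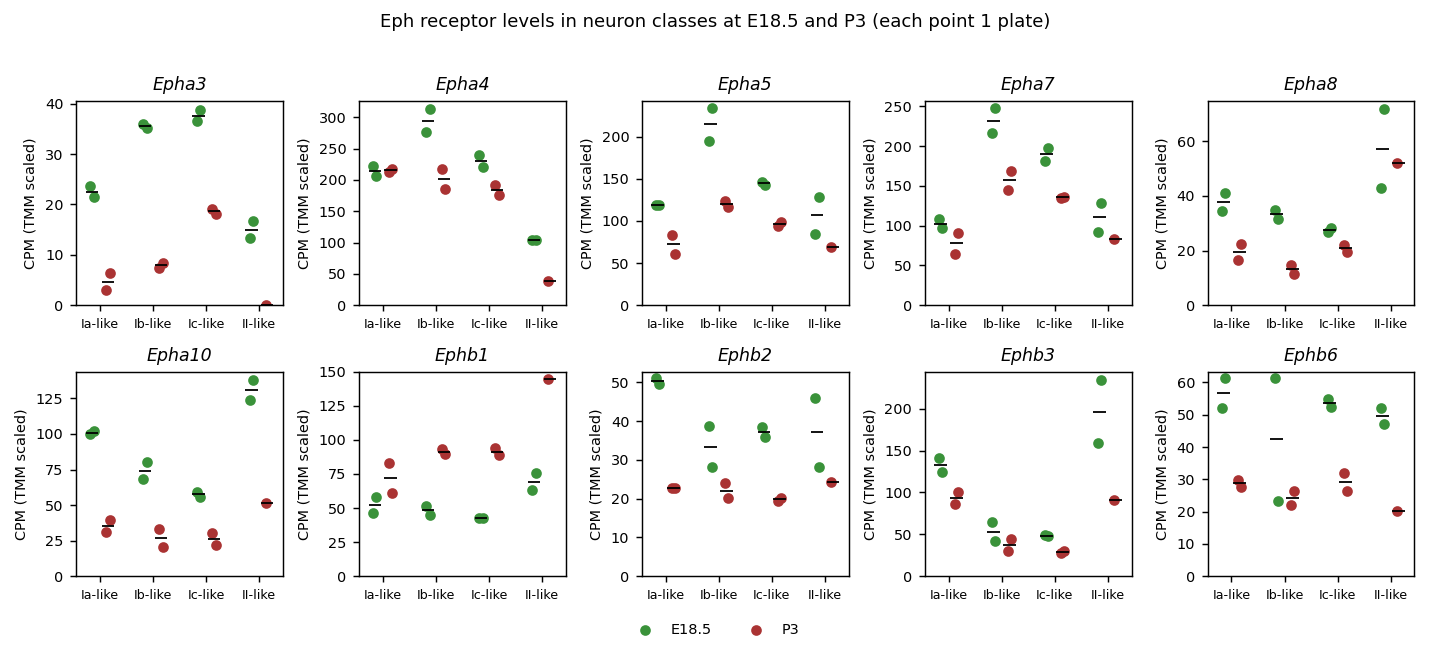
CPM (TMM scaled, linear axis from 0) of the 10 receptors in Ia-like, Ib-like, Ic-like and II-like neurons at E18.5 (green) and P3 (red), with each point 1 plate and bars for the mean of each stage. Epha4 is lowest in II-like neurons (39.3 to 104 CPM), Epha7 is higher in Ib-like and Ic-like than in Ia-like neurons, and Ephb3 is higher in Ia-like and II-like neurons.

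Among the ligands, Efna5 averaged 683 ± 83.7 CPM in II-like neurons (n = 3) against 32.7 ± 10.8, 11.8 ± 4.26 and 17.8 ± 4.35 CPM in Ia-like, Ib-like and Ic-like neurons (n = 4 each), a difference of 5.2 ± 0.2 on the log2 scale (adjusted p = 7.75e-10). Of the 52 other pathway genes, 15 were called between II-like and type I neurons, 10 higher and 5 lower, where 18.2% of all genes were called. Between Ib and Ia 4 were called, between Ic and Ia 3, and between Ic and Ib none, where 3.53%, 4.65% and 0.539% of all genes were called.

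Hair cells were available from E18.5 (24 and 19 cochlear HC-like cells on the 2 plates) and from 5 cells of the E17.5 plate. These sums took in 10 and 3 cells at E18.5, and 4 at E17.5, of an unnamed subcluster with Sostdc1, Col3a1 and Col1a2 among its leading genes. Per kilobase, Epha4 made up 33.4% of the summed level at E18.5 (32.1% to 34.8% over the 2 plates), Ephb1 25.1% (22% to 28.2%) and Epha7 22.9% (18.2% to 27.6%). With the unnamed cells left out, a choice made after the data were seen, 14 and 16 cells remained and the shares on the 2 plates were 43.5% and 42.8% for Epha4, 23.4% and 26.8% for Ephb1 and 9.47% and 16.2% for Epha7. Compared with SGN-like neurons of the same plates, 8 of the 10 receptors were called, where 51.6% of all 15900 genes were called. Ephb1 was the 1 receptor higher in hair cells, at 122 and 146 CPM against 42.8 and 46.3 CPM in neurons. It was 2.96-fold higher (1.57 ± 0.14, adjusted p = 0.00102), and its exons share 152 bases with those of Gm26846 on the other strand, which was not analysed here.

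Epha3, Epha5, Epha8 and Epha10 were low in hair cells, at 0.129 to 6.81 CPM. Epha10 measured 0.129 and 2.61 CPM, which was 1 count and 18 counts, against 97.7 and 91.9 CPM in neurons (-6.20 ± 0.65, adjusted p = 0.00159). Epha5 measured 4.12 and 6.81 CPM against 157 ± 9.52 CPM (SD, n = 2) in neurons (-4.89 ± 0.25, adjusted p = 0.000238). Neuronal markers summed to 1410 and 2380 CPM in these hair cell sums, with all 14 above 0, against 14800 to 15200 CPM in the neurons, and their part in these low values was not tested. OM markers summed to 6790 and 2290 CPM, with 15 and 12 of 17 above 0, against 634 to 743 CPM in the neurons, and glial markers to 1290 and 1150 CPM, with all 13 above 0. Without the unnamed cells OM markers summed to 1720 and 1930 CPM. Ephb3, Ephb2 and Ephb6 were lower too (-2.13 ± 0.14, -2.10 ± 0.25 and -0.95 ± 0.13, adjusted p = 0.000386, 0.00252 and 0.00351). Epha4 was at 206 and 208 CPM in hair cells and 231 and 227 CPM in neurons (-0.18 ± 0.10, adjusted p = 0.196), and it was called once neurons with a Sox10 count were left out (adjusted p = 0.0279). Epha7 was at 175 ± 59.4 CPM (SD, n = 2) against 198 and 213 CPM (-0.26 ± 0.24, adjusted p = 0.409). Without the unnamed cells Epha7 was at 62.4 and 105 CPM and was called lower (-1.27, adjusted p = 0.00969), and the 8 other receptors kept their calls. The 5 cells of E17.5 held Ephb1 at 427 CPM, Epha7 at 296 CPM and Epha4 at 159 CPM and no count of Epha3, Epha5, Epha8 or Epha10.

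Inner and outer hair cells (IHC-like and OHC-like) were told apart in few cells, 6 and 12 IHC-like and 8 and 4 OHC-like on the 2 plates. Of the 10 receptors, 6 could be tested and 2 were called, where 7.84% of all 11445 genes were called. Epha7 measured 140 ± 9.41 CPM (SD, n = 2) in IHC-like and 1.16 and 26.4 CPM in OHC-like cells. It was 11.6-fold lower in OHC-like cells (-3.54 ± 0.77, adjusted p = 0.0192). OM markers, a class in which Epha7 was high, summed to 2320 to 3060 CPM in IHC-like and 783 to 892 CPM in OHC-like sums, with 9 and 10 against 9 and 5 of 17 above 0, and their part in this difference was not tested. Epha4 measured 182 and 188 CPM in IHC-like and 287 and 372 CPM in OHC-like cells, 1.81-fold higher (0.86 ± 0.21, adjusted p = 0.0317). Neither gene's plates overlapped between the types, which adds no support to calls made on the same plates. By DESeq2's Wald test 1 receptor was called and Epha7 was not, and with at least 5 cells required per sum 1 was called and Epha4 was not. Ephb1 was at 125 and 126 CPM in IHC-like and 103 and 127 CPM in OHC-like cells (-0.12 ± 0.24, adjusted p = 0.863). The ligand gene Efna5 showed 3.01 to 5.42 CPM in IHC-like and 302 to 344 CPM in OHC-like cells (6.17 ± 0.31, adjusted p = 4.27e-06), and Efnb2 6.37 to 13.6 CPM against 49.7 to 55.3 CPM (2.47 ± 0.49, adjusted p = 0.0117), the 2 called among 42 other pathway genes tested.

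Vestibular-like hair cells, 13 on each E18.5 plate, were compared with the cochlear ones. None of the 8 receptors tested was called by edgeR (0) or by DESeq2's Wald test (0), 0 had an unadjusted p below 0.05, and 9.25% of all 13213 genes were called. Epha4 measured 302 and 241 CPM in vestibular-like cells against 206 and 208 CPM (0.43 ± 0.19, adjusted p = 0.232), and Epha7 134 and 80.6 CPM against 175 ± 59.4 CPM (-0.67 ± 0.33, adjusted p = 0.284). Without the unnamed cochlear cells 0 receptors were called, and over the alternatives the Epha7 difference ran from -0.67 to 0.30. Another receptor, Epha1, measured 61.7 ± 6.61 CPM in cochlear HC-like cells (SD, n = 2) against 0.852 ± 0.109 CPM in neurons of E18.5 (6.15 ± 0.21, adjusted p = 9.99e-05), 1 of 32 called among the 52 other pathway genes (9 higher, 23 lower), where 51.6% of all genes were called. Epha6 had no count in the cochlear HC-like sums and 3.68 ± 1.15 CPM in neurons.

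**Figure D4:**
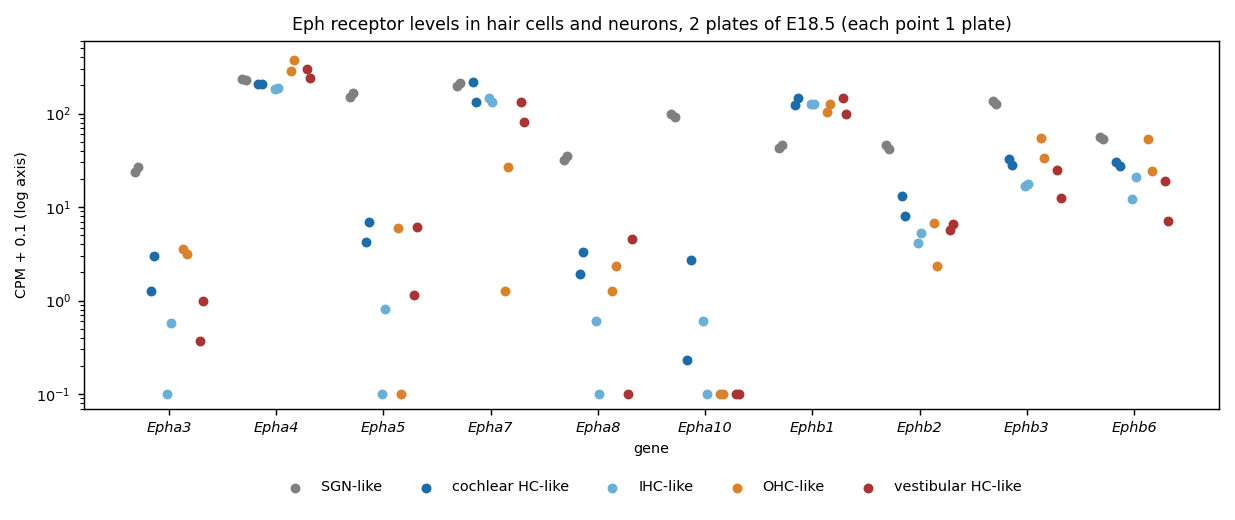
CPM plus 0.1 on a log axis for the 10 receptors on the 2 E18.5 plates, with each point 1 plate and colours for SGN-like, cochlear HC-like, IHC-like, OHC-like and vestibular HC-like sums. Ephb1 lies above the neurons in every hair cell sum, Epha7 splits IHC-like (140 ± 9.41 CPM) from OHC-like cells (1.16 and 26.4 CPM), and Epha3, Epha5, Epha8 and Epha10 lie at or below 6.81 CPM in all hair cell sums.

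The number of different receptors counted in a single cell was taken after each cell was thinned to 100000 counts, which left out 155 cells (3.67%). An SGN-like cell held 6.61 ± 1.38 of the 10 receptors (SD over 12 plates), a glia-like cell 4.56 ± 2.76 (10 plates), an OM-like cell 4.76 ± 2.87 (9 plates) and a cochlear HC-like cell 4.49 ± 0.791 (3 plates). Without thinning, the same means were 7.02, 4.59, 4.9 and 4.88. These numbers moved with plate series as well as with class and stage. On SS2_20 plates, glia-like cells held from 2.35 to 2.67 receptors and OM-like cells from 2.61 to 3.04, and the few cells of either class on other plates held up to 8.75 and 9.33. In neurons the mean went from 4.25 and 4.84 at E14.5 and 5.13 and 5.86 at E15.5 to 6.97 at E17.5 on SS2_20 plates. At E16.5 it was 6.27 on the SS2_20 plate and at most 7.78 on the SS2_18 plates, and at E18.5 it was 8.37 and 8.47, where stage and series cannot be told apart.

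Detection of single genes in neurons went with their levels for some receptors and not for others. Epha3 was counted in 34.5% and 42.0% of cells at E14.5 and in 54.5% and 56.5% at E18.5, while its level was lower at E18.5. These stages came from different plate series, so stage and series cannot be told apart in this rise. On the later SS2_20 plates Epha3 was counted in 36.4% and 34.1% of cells at E15.5, 26.9% at E16.5 and 37.1% at E17.5. Epha5 was counted in 91.1% to 99.0% of thinned SGN-like cells on every plate and Epha4 in 79.7% to 99.7%. Epha10 was counted in 15.9% and 20.7% of cells at E14.5, 81.4% at E17.5 and 56.0% and 63.7% at P3, and Ephb3 in at most 19% of cells at E14.5, 75.7% at E17.5 and 69.6% and 74.5% at P3. Outside neurons, Epha10 was counted in at most 1.44% of glia-like cells of the SS2_20 plates and Epha8 in at most 0.855%, and in hair cells of E18.5 Epha8 was counted in 4.17% and 10.5% and Ephb1 in 100% and 84.2%. Reads without molecular identifiers are not independent molecules, so counts bound counting error only.

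**Figure D5:**
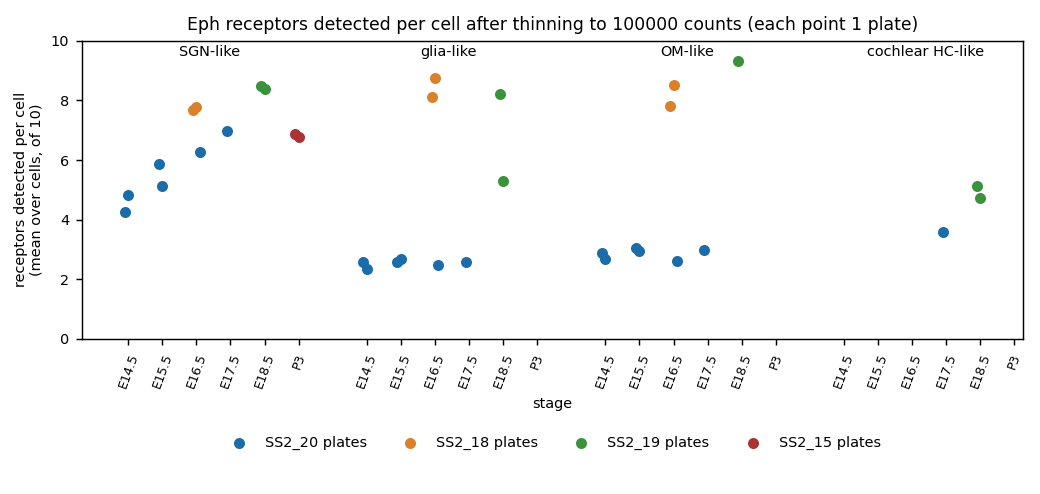
Mean number of the 10 receptors with at least 1 count per cell, after thinning each cell to 100000 counts, by stage for SGN-like, glia-like, OM-like and cochlear HC-like cells, with each point 1 plate coloured by plate series. Neurons of the SS2_20 plates go from 4.25 at the lowest E14.5 plate to 6.97 at E17.5, and glia-like and OM-like cells of those plates stay at or below 3.04, under those of the other series.

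Likeness of pattern was measured over the 18 class-by-stage groups of SGN-like, glia-like, OM-like and cochlear HC-like cells, as Pearson's r of log2(CPM + 1) of group means, among 13471 genes that reached 10 CPM in a group. These groups share plates and, in the small sums, neuronal RNA, so r is a description. Among the members, Epha8 and Epha10 were the closest pair (r = 0.97), followed by Epha4 and Epha7 (r = 0.90). Epha10 and Ephb3, which climbed together in neurons, had r = 0.42 over these groups. Over all genes, Nrg3 and Nyap2 were among the genes closest to Epha10 (r = 0.983 each). Epha8 was closest to Kcnc1 (r = 0.989), Lrrc55 (r = 0.988) and Dscam (r = 0.983), and Epha4 to Ebf1 (r = 0.963), Cbfa2t3 (r = 0.933) and Pth1r (r = 0.925). Epha3 was closest to Mef2c (r = 0.938), Nfil3 (r = 0.929) and Zkscan1 (r = 0.918), Epha5 to Hivep3 (r = 0.954), and Epha7 to Cxadr (r = 0.922), Sema3f (r = 0.918) and Robo1 (r = 0.914). Of the EphB genes, Ephb1, Ephb3 and Ephb6 had looser partners. Ephb1 was closest to Manba (r = 0.866) and to Tbx2 (r = 0.86), Ephb3 to Spin2c (r = 0.857), Ephb6 to Shpk (r = 0.807) and Ephb2 to Zfand3 (r = 0.91).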

How the data were processed

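Smart-seq2 reads were demultiplexed by the authors, mapped to mm10 with spike-in sequences by STAR in 2-pass mode, and uniquely mapped reads were deposited as raw counts per gene and well. Reads were counted with featureCounts, and its annotation and use of strand are not given in the sources used here. Another 1 plate of 384 wells that matched no label was not used. Wells with more than 1000 genes and under 5% spike-in counts (92 sequences) were clustered per stage with scanpy 1.11.5 and leidenalg 0.10.2 (2000 variable genes, 30 components, 30 neighbours, resolution 1), with 22 Eph and ephrin genes and 1364 genes of a glial list kept out. Clusters were named from marker lists, with thresholds settled after the cluster tables were seen. Doublets were gated out at the sort by scatter, no doublet caller was run, and wells with more than 1 cell were not tested for beyond leaving out the deepest cells. Sums per class and plate needed 5 cells, or 3 in hair cell classes.

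The test on these sums was run with edgeR 4.0.16 in R 4.3.3 (TMM, filterByExpr, quasi-likelihood F-test), Benjamini-Hochberg adjusted over all genes, called under 0.05, and the SE was derived from F. The study tested single cells. Cells are not replicates, so sums were used. The fits had 2 to 12 residual degrees of freedom. The script was tested on simulated data. Levels per kb used exon lengths of GENCODE vM21. Classes of 1 plate share its animals and library preparation, so the plate paired them as a block in an alternative fit. Other alternatives were DESeq2 1.42.0, RLE size factors, no filter on low counts, resolution 2, larger sums, the 5% deepest cells left out, neurons with a Sox10 count left out, SS2_20 plates only, unnamed hair cells left out (chosen after the data were seen), each plate left out, and other thinning.

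The members and lists were chosen with earlier results of these data known. All members were named, with at most 4 other pathway genes per comparison, those called with the largest change, and up to 3 genes of most similar pattern per member, of which a gene like Epha10 in pattern is not reported here. Depth was 80997594 to 303906928 counts per plate.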

Additional observations from a re-analysis of the deposited data

Results flagged for a closer look

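Of 60 groups of 4 or 6 sums, 6 held a value whose gap to its neighbour was large for the range of the group. Chance gives about 1 in 20 for sums drawn from a single population. These groups mixed stages, so that rate need not hold here. Ephb2 in SGN-like neurons of the SS2_20 plates reached 62.7 CPM in E15.5 replicate 2, with the next plate at 50.7 CPM. Epha8 in glia-like cells reached 1.88 CPM in E15.5 replicate 1, with the next at 0.194 CPM. In OM-like cells, Epha3 reached 52.4 CPM in E15.5 replicate 1 (next 19.8 CPM), Epha4 reached 422 CPM in E14.5 replicate 1 (next 381 CPM), and Ephb3 was lowest in E15.5 replicate 2 at 45.6 CPM (next 91.3 CPM). These E15.5 plates held 23 and 25 OM-like cells. Ephb6 in Ib-like neurons reached 61.3 CPM in E18.5 replicate 1, with the next sum at 26.5 CPM.

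The change per day differed between classes for 2 receptors by a test of the difference. Epha5 differed by 1.10 log2 units per day between glia-like cells and neurons, and Ephb3 by -1.02 between OM-like cells and neurons. With the plate as a block neither was called by edgeR (adjusted p = 0.0929 and 0.0562).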

How the results depend on the processing

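Of 62 called results of single receptors, 38 were called in every alternative run, and over 862 alternative values 782 kept their direction and call, 80 lost the call and 0 reversed. Of 142 results that were not called, 23 were called in some alternative. The cause of these changes was not tested. By DESeq2's Wald test, the number of receptors called became 5 from E15.5 to E16.5, 1 from E16.5 to E18.5, 2 for the change per day in glia, 2 for glia minus neurons and 2 for OM minus neurons, 5 for Ic against intermediate, 1 for Ic against Ib and 1 for OHC against IHC. Without a filter on low counts it became 4 for Ic against intermediate and 1 for Ic against Ib. Without neurons holding a Sox10 count it became 1 from E14.5 to E15.5, 0 from E15.5 to E16.5 and 0 for the change per day of glia minus neurons, and on SS2_20 plates only 1 and 0 for the 2 earlier steps. Within Ic-like neurons, an alternative chosen after the data were seen, it was 0 from E15.5 to E16.5 and 4 at P3. Leaving out unnamed hair cells, also chosen afterwards, gave 9 against 8 for hair cells and neurons. RLE size factors gave 0 for glia minus neurons, and larger sums gave 1 for OHC against IHC. The largest shift between TMM and RLE in the median of all genes was 0.11 (log2).

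The plate as a replicate block ended the calls of Epha5 (0 receptors, glia minus neurons) and Ephb3 (0, OM minus neurons) in change per day and of Epha3 in II-like neurons (-1.74, adjusted p = 0.0574 by edgeR), and changed no other call.

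With each plate left out in turn, the counts ranged from 2 to 3 at E15.5, 0 to 4 at E16.5, 0 to 1 from E16.5 to E18.5, 4 to 9 at P3, 3 to 7 from E14.5 to E18.5, 0 to 0 for glia minus neurons and 0 to 1 for OM minus neurons per day, 2 to 4 for Ic against intermediate and 5 to 7 for II against type I. Leaving out a plate was not run for hair cells, where no residual degrees of freedom would remain, nor leaving out Sox10-positive neurons for the late classes. Few cells limit the hair cell types, and reads without identifiers limit precision.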

Other observations

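Unspecialized-like neurons of E14.5, which were part of the SGN-like sums and were not compared as a class of their own, held Epha5 at 961 and 660 CPM, Epha4 at 93.6 and 107 CPM, Ephb3 at 0 and 9.11 CPM and Epha10 at 0 and 4.36 CPM on the 2 plates.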
